A study of Mus musculus with 6 samples.

Results

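The genes described here encode the regulatory proteins of the striated muscle thin filament and related tropomyosins: the troponins Tnnt2, Tnni3, Tnni1, Tnnc1 and Tnnt1 and the tropomyosins Tpm1, Tpm2 and Tpm4. They were a fixed list of 8 genes, matched by symbol among the 22180 genes that had at least 1 probe set carrying a single gene symbol. All 8 were measured, 7 by 1 probe set and Tpm4 by 2. Values are log2 expression from Affymetrix Mouse Gene 2.0 ST arrays, normalized by the authors with RMA, for 6 mouse RNA samples with 1 library in each group.

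In 3 libraries, iPS cells (induced pluripotent stem cells, reprogrammed to a state from which most cell types can form) were sampled at day 7 of differentiation, having formed embryoid bodies over 5 days and then been plated on gelatin. These cultures received 1% DMSO together with 100 ng/ml NRG-1, 100 ng/ml NRG-1 alone, or 1% DMSO alone. DMSO serves as an inducer of differentiation in some stem cell protocols, and neuregulin 1, NRG-1, is an ERBB receptor ligand important in heart development. The other libraries were labelled adult cardiomyocytes and neonatal cardiomyocytes, both from mouse heart, and undifferentiated iPS cells. All samples carry the strain label DBA/2J and the label female. Ages of the mice, pooling and the number of animals were not given in the sources used here, and the iPS cells were kept on feeder cells with LIF. No group has a replicate, so no test was run and every difference describes a pair of libraries. A differentiated culture without DMSO and NRG-1 was not analysed here.

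Muscle contraction is switched on when calcium binds troponin C, encoded for heart and slow muscle by Tnnc1. Troponin I holds the filament in the blocked state, with a slow skeletal and fetal heart form (Tnni1) and a cardiac form (Tnni3) that takes over as the heart matures. Troponin T anchors the complex to tropomyosin, with Tnnt2 as the heart form and Tnnt1 as the slow skeletal form. Tropomyosins lie along the actin filament. Tpm1 is the main striated tropomyosin of mouse heart and also gives smooth muscle and non-muscle forms by alternative splicing, Tpm2 is abundant in slow skeletal and smooth muscle, and Tpm4 is widely expressed in non-muscle cells. A value for a whole gene on this array does not separate such splice forms.

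Some genes of this group lie next to each other. In the RefSeq table of assembly GRCm38, Tnnt1 and Tnni3 are neighbours on chromosome 7 with 0 protein-coding genes between them, and Tnni1 and Tnnt2 lie on chromosome 1 with 1 between them, Lad1. The 4 promoters shown are those with a match to any motif searched other than the E-box. They belong to Tnnt1, which was highest in iPS cells, and to Tnnt2, Tpm1 and Tnnc1, which were lowest there. Tpm2 and Tpm4 were also lowest in iPS cells, at 6.35 and 8.78, and their promoters had no such match. The second promoter of Tnnt2 had none either. Each promoter shown runs 5′ to 3′ over 300 bases, from 250 bases before the gene's start to 50 bases after it, as RefSeq gives it on GRCm38.p6. The positions are chr1:135836084-135836383, plus strand for Tnnt2, chr9:67049164-67049463, minus strand for Tpm1, chr14:31208062-31208361, plus strand for Tnnc1 and chr7:4515926-4516225, minus strand for Tnnt1. Capitals mark the M-CAT motif of TEAD factors (CATTCC or its reverse complement) in Tnnt2, Tpm1 and Tnnc1, a GATA motif (AGATAA or TGATAA, on the opposite strand) farther upstream in Tnnt2, and TATAAA in Tnnt1.
Tnnt2: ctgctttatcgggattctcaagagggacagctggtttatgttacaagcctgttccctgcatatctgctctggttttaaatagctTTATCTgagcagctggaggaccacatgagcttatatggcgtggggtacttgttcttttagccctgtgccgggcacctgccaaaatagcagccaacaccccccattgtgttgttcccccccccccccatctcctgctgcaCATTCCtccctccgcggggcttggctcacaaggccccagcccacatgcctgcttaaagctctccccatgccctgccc
Tpm1: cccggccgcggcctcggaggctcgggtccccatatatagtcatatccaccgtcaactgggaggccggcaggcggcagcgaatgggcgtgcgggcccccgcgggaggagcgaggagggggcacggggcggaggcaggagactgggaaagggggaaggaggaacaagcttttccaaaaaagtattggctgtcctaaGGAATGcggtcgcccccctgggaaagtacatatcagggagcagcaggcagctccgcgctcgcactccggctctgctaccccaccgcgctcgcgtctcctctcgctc
Tnnc1: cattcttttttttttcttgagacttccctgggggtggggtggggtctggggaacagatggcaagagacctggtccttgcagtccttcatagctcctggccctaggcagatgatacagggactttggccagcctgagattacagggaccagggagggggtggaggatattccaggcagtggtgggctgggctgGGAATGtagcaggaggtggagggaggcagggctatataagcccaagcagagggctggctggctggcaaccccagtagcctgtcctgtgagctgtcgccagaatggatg
Tnnt1: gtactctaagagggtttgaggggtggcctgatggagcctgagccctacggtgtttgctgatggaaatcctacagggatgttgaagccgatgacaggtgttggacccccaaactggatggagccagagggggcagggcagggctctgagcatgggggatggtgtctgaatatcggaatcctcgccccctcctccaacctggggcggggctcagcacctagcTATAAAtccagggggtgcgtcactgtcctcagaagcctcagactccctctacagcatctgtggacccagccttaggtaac

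All 8 members had a promoter in the table, with 10 promoters in all because Tnni1 and Tnnt2 have 2 each. On either strand, CATTCC occurred in 3 of the 10, those shown of Tnnt2 (positions -27 to -22 from the start site), Tpm1 (-56 to -51) and Tnnc1 (-58 to -53), and in 14.7% of 32851 promoters of the same length. A GATA motif (AGATAA or TGATAA) occurred in 1 of the 10, that of Tnnt2 at -166 to -161, and in 18.6% of all promoters. None of these matches overlapped another motif searched. The CArG box and the MEF2 site were found in 0 of the 10, against 1.63% and 3.19% of all promoters. TATAAA occurred in 1 of the 10, the promoter of Tnnt1, against 13.6%, and the E-box CANNTG in all 10, against 72.3%. Such a match is a description of the letters in this window and says nothing of binding.

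Before the members' values, the libraries were checked against their labels with marker genes. The library labelled adult cardiomyocytes had 0 of 12 cardiomyocyte markers at least 2-fold above the iPS library, with a list median 0.24 below it on the log2 scale, and the neonatal library had 2 of 12, Nppa and Pln. The myosin heavy chain Myh6 stood at 5.05 in the adult, 6.47 in the neonatal and 5.82 in the iPS library. Fibroblast markers were at least 2-fold higher than in iPS cells for 10 of 10 genes in both the adult and the neonatal library, with list medians of 4.47 and 3.77, and smooth muscle and pericyte markers for 5 and 6 of 9, with Notch3 lower in the neonatal library. In the cultures with DMSO and NRG-1, with NRG-1 and with DMSO, 7, 5 and 7 of the 12 cardiomyocyte markers were at least 2-fold above iPS cells, as were 7 of 10 fibroblast and 6 of 7 epithelial markers in each. Smooth muscle and pericyte markers were higher for 2, 1 and 1 of 9 in these cultures, with Notch3 lower in each. The skeletal muscle list of 8 genes had 1 gene, Acta1, at least 2-fold higher in each culture and 0 in the adult and neonatal libraries. Of that list, Mylpf was lower in all 5 libraries, by -3.61 to -3.94, and Acta1 was lower in the neonatal library (-1.18). Over all genes bright enough to be counted, 11.3% to 13.1% were higher and 11.2% to 14.5% lower than in iPS cells. The heart-derived libraries are therefore called here by their labels' ages only, as the adult library and the neonatal library. Both also held Y-linked transcripts against the label female, with Eif2s3y at 8.15 in the adult and 6.20 in the neonatal library, against 3.27 in the iPS library, while Xist, an RNA made from an inactive X, had a value of 3.39 in the adult and 8.78 in the neonatal library, against 5.97 in iPS cells. The neonatal library thus held both Xist and Y-linked transcripts, and its Xist value was the highest of the 6. Pluripotency markers were at least 2-fold below iPS cells for 7 of 8 genes in all 5 libraries. Epithelial markers were lower for 5 of 7 and higher for 0 in the adult library, and lower for 4 and higher for 2 (Krt18 and Krt19) in the neonatal library. Endothelial markers were higher for 3 of 7 and lower for 1 in the adult library, higher for 2 and lower for 2 in the neonatal library, and higher for 1 and lower for 1 (Pecam1) in each culture. Macrophage markers were higher for 3 of 8 in the adult library, 2 in the neonatal library and 2 in each culture, with 0 lower. As each group is a single library, no result could be given without these libraries.

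Cardiac troponin T, Tnnt2, differed most between the libraries. Its log2 value was 9.32 with DMSO and NRG-1, 8.50 with NRG-1 and 9.32 with DMSO, 8.22 in the adult library, 9.76 in the neonatal library and 6.35 in iPS cells. The iPS library was the lowest and the neonatal library the highest, and all 5 others lay at least 3.67-fold above iPS cells. Relative to iPS cells it was 7.84-fold higher with DMSO and NRG-1, 4.45-fold with NRG-1, 7.85-fold with DMSO and 10.7-fold in the neonatal library. In this and every other whole-culture value, a larger share of cells that express a gene and more RNA per cell cannot be told apart.

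Troponin I genes showed another order, in which the adult library was lowest. Tnni3, the cardiac form, stood at 7.06 with DMSO and NRG-1, 6.91 with NRG-1, 7.11 with DMSO, 5.78 in the adult, 7.01 in the neonatal and 6.08 in the iPS library. Tnni1, the slow skeletal and fetal form, stood at 7.00, 6.53 and 6.88 in the same cultures, 5.65 in the adult, 6.79 in the neonatal and 5.86 in the iPS library. For both genes the 3 cultures and the neonatal library were the higher 4, and the iPS and adult libraries the lower 2. Both genes differed by 0.93 between the neonatal and the iPS library, just short of a 2-fold difference. The profiles of these 2 genes were close: after centring each on its own mean, they differed by a root mean square of 0.098 over the 6 libraries. Among 13270 genes compared in this way, Tnni1 was the second nearest to Tnni3.

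Troponin C, Tnnc1, was highest with NRG-1 alone. It stood at 7.63 with DMSO and NRG-1, 7.89 with NRG-1, 7.49 with DMSO, 6.95 in the adult, 6.92 in the neonatal and 6.54 in the iPS library. The 3 cultures were the higher libraries of the 6, and the adult and neonatal libraries differed by 0.03. Relative to iPS cells the NRG-1 culture was 2.56-fold higher and the culture with DMSO and NRG-1 2.13-fold higher.

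Tnnt1, the slow skeletal troponin T, was the member that was highest in undifferentiated cells. It stood at 5.37 with DMSO and NRG-1, 5.48 with NRG-1, 5.41 with DMSO, 5.41 in the adult and 5.01 in the neonatal library, against 6.03 in iPS cells. The neonatal value was below 5.20, the median of all values in the table, which served as the filter on dim genes. It differed from iPS cells by -1.02, at the edge of a 2-fold difference, and the other libraries differed by -0.55 to -0.67.

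**Figure D1:**
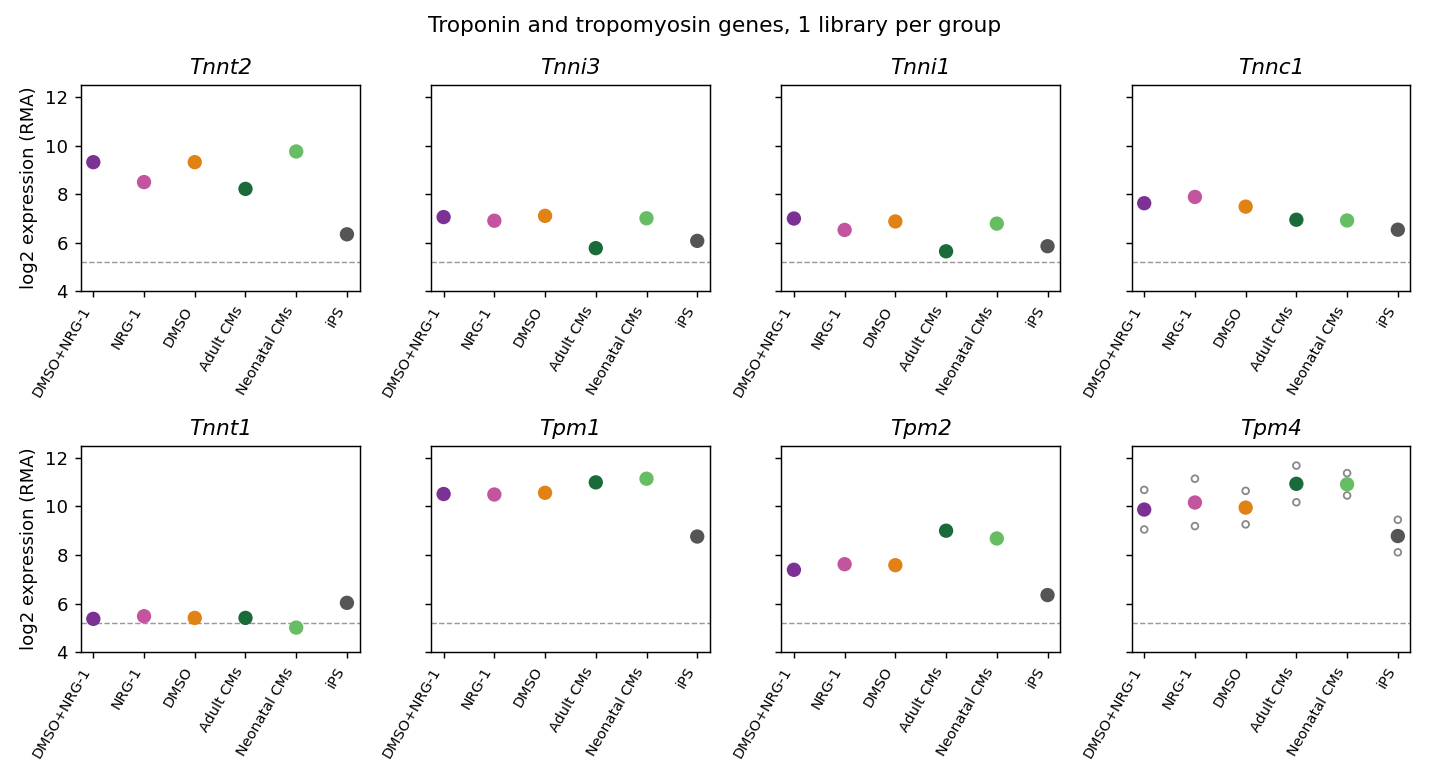
Log2 expression (vertical axis, RMA values) of the 8 genes in the 6 libraries (horizontal axis), 1 filled point per library and gene, with open circles for the 2 probe sets of Tpm4 and a dashed line at the median of all values (5.20). Tnnt2, Tnnc1, Tpm1, Tpm2 and Tpm4 are lowest in iPS cells, and Tnnt1 is highest there. Tnni3 and Tnni1 are lowest in the adult library.

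The tropomyosins were highest in the heart-derived libraries. Tpm1 stood at 10.51 with DMSO and NRG-1, 10.49 with NRG-1 and 10.56 with DMSO, at 10.99 in the adult and 11.14 in the neonatal library, and at 8.76 in iPS cells. The 3 cultures lay within 0.07 of each other and were 3.31-fold to 3.47-fold above iPS cells. Tpm2 stood at 7.39, 7.62 and 7.58 in the same cultures, at 9.00 in the adult, 8.68 in the neonatal and 6.35 in the iPS library. Its adult value was 6.30-fold above iPS cells, beside 2.06-fold to 2.42-fold for the cultures, which formed an intermediate group.

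Tpm4 averaged 9.87 with DMSO and NRG-1, 10.16 with NRG-1, 9.95 with DMSO, 10.93 in the adult, 10.91 in the neonatal and 8.78 in the iPS library over its 2 probe sets. Both probe sets were higher in every other library than in iPS cells, by 0.94 to 2.33 on the first and 1.19 to 2.23 on the second. They disagreed on the order of the cultures. NRG-1 minus DMSO was -0.07 on the first and 0.49 on the second, and NRG-1 minus neonatal was -1.26 on the first and -0.23 on the second.

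Neighbouring libraries in the order of a gene were mostly not apart by more than the disagreement between probe sets of 1 gene. The only technical measure in the table is the disagreement of 2 probe sets of 1 gene, given as an SD of a log2 difference, which was 0.197 to 0.601 over the 15 pairs of libraries. It was smallest for DMSO with NRG-1 minus DMSO and largest for NRG-1 minus iPS cells. As it compares unlike probe sets, it is not the spread of a repeated array. Of the 40 gaps between neighbouring libraries over the 8 genes, 29 were within that SD for their pair. For Tnnt2 the gaps beyond it were those between the adult and iPS libraries (1.87) and between the culture with DMSO and NRG-1 and that with NRG-1 (0.82). Tpm1 had 1 such gap, between the NRG-1 culture and iPS cells (1.73), and the widest gap of Tpm2 was between the neonatal library and the NRG-1 culture (1.05). For Tnnt1 all 5 gaps were within the SD.

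The differentiated cultures were set against undifferentiated iPS cells to ask which thin filament genes were higher after differentiation. A gene was counted when it was at least 2-fold apart and its higher value reached 5.20. With DMSO and NRG-1, 6 of the 8 members were at least 2-fold higher and 0 lower, where 13.0% of the 13696 genes that passed the filter were higher and 13.1% lower. With NRG-1 alone 5 were higher and 0 lower, where 11.3% and 14.5% of all genes were, and with DMSO alone 6 were higher and 0 lower, where 13.1% and 13.3% were. The median difference of the members was 1.09, 1.32 and 1.10 in these comparisons, beside -0.02, 0.00 and 0.00 for all genes. All 3 tropomyosins and Tnnt2 were higher in each culture. Tnni3 lay on both sides of the threshold, at 0.98 with DMSO and NRG-1, 0.83 with NRG-1 and 1.04 with DMSO, and Tnnc1 was counted in the cultures with NRG-1 (1.09 and 1.36) but stood at 0.95 with DMSO. These 3 comparisons share the iPS library.

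Against the same iPS library, the adult and neonatal libraries had the same 4 members called higher. In the adult library 4 members were at least 2-fold higher and 0 lower, where 13.1% of all genes were higher and 14.1% lower, and in the neonatal library 4 were higher and 1 lower, where 13.0% and 11.2% were. The 4 were Tnnt2, Tpm1, Tpm2 and Tpm4, and the lower one was Tnnt1, at -1.02 in the neonatal and -0.63 in the adult library. Troponin I and C were not counted: Tnni3 differed by -0.29 in the adult and 0.93 in the neonatal library, Tnni1 by -0.20 and 0.93, and Tnnc1 by 0.42 and 0.39.

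**Figure D2:**
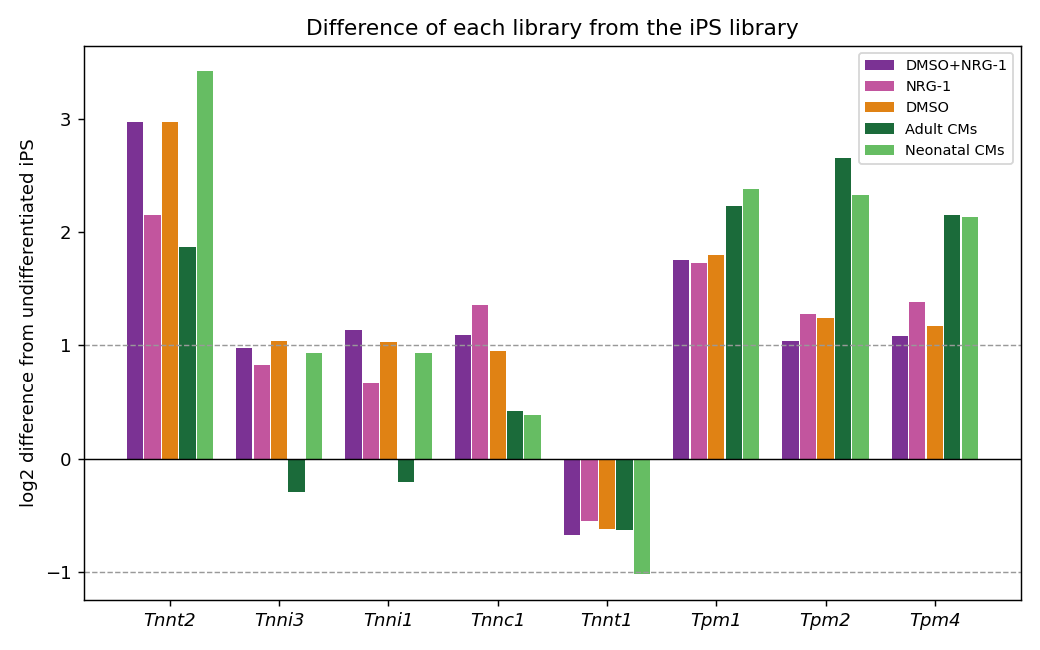
Log2 difference of each library from the iPS library (vertical axis) for the 8 genes (horizontal axis), 1 bar per library, with dashed lines at a 2-fold difference. Tnnt2 has the tallest bar, 3.42 in the neonatal library, the bars of Tpm2 and Tpm4 are taller for the adult and neonatal libraries than for the cultures, and all bars of Tnnt1 are below 0.

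Between the heart-derived libraries, 3 troponins were lower in the adult one and the tropomyosins were close. Tnnt2 differed by -1.54, Tnni3 by -1.23 and Tnni1 by -1.13, adult minus neonatal, beside a probe set SD of 0.345. These 3 were the members at least 2-fold lower, where 2.92% of 13164 genes were lower, and 0 members were higher, where 2.52% of genes were. Tpm1, Tpm2 and Tpm4 differed by -0.15, 0.33 and 0.02 and Tnnc1 by 0.03, all within that SD. Tnnt1 differed by 0.39, beyond the SD and in the other direction, with a dim neonatal value of 5.01. Cardiomyocyte markers moved with the troponins, 4 of 12 being lower and 0 higher (Nppa -5.26, Pln -2.54, Myh6 -1.42 and Myl7 -1.39), and their part in the result was not tested. Smooth muscle and pericyte markers had 0 of 9 genes at least 2-fold apart, and fibroblast markers 2 of 10, both higher in the adult library. Macrophage markers were higher in the adult library for 4 of 8 at a list median of 1.24 and endothelial markers for 2 of 7, and epithelial markers were lower for 3 of 7 at a list median of -0.90. The part of these markers in the result was not tested either.

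Among the cultures, no member was 2-fold apart, and Tnnt2 differed most. NRG-1 minus DMSO was -0.82 for Tnnt2, -0.36 for Tnni1 and 0.41 for Tnnc1, each beyond the probe set SD of 0.305, and the other 5 were within it. In that comparison 0 members were higher or lower, beside 0.36% and 1.78% of 13343 genes. DMSO with NRG-1 minus NRG-1 gave 0.82 for Tnnt2 and 0.47 for Tnni1, with an SD of 0.299 and the other 6 members within it, and 0 members were called, beside 1.08% higher and 0.293% lower over all genes. NRG-1 added to DMSO differed least from DMSO alone. There the members ranged from -0.20 (Tpm2) to 0.14 (Tnnc1), 7 of 8 lay within the SD of 0.197, and 0 were called, as 0.0455% of all genes were higher and 0.053% lower. Tnnt2 was 9.32 in both of these libraries. When libraries were shifted to equal medians of 11 housekeeping genes, NRG-1 minus DMSO became -1.27 for Tnnt2, -0.81 for Tnni1 and -0.04 for Tnnc1, while the median over all genes moved to -0.45. The gene at the median was not the same, being Polr2a (9.08) with DMSO and Psmb2 (9.53) with NRG-1. The median of the 11 genes' own NRG-1 minus DMSO differences was -0.12, and a shift by that median would go the other way. The shifted values therefore depend on how the median was taken. Of 12 cardiomyocyte markers, 2 (Actn2 and Myh6) were at least 2-fold lower with NRG-1 than with DMSO and 0 higher, at a list median of -0.43. The list was mixed, running from -1.24 to 0.45, with Myh7 (0.45) and Myl7 (0.38) on the higher side. Among 13 thick filament genes, 1 was at least 2-fold higher with NRG-1 (Mybpc3, 1.13) and 1 lower (Myh6, -1.11). The part of these genes in the result was not tested. With only 1 library for each treatment, none of these differences can be set against the spread between cultures.

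Each culture was also set against the heart-derived libraries. Against the neonatal library, Tpm2 was at least 2-fold lower in all 3 cultures, by -1.29 with DMSO and NRG-1, -1.05 with NRG-1 and -1.09 with DMSO. Tpm4 was lower with DMSO and NRG-1 (-1.04) and Tnnt2 with NRG-1 (-1.26). That made 2, 2 and 1 members lower in these cultures, where 10.4%, 12.7% and 10.4% of all genes were lower, and 0 members higher, where 9.38%, 8.95% and 9.23% were. Tnni3 differed from the neonatal library by 0.05, -0.10 and 0.10 in the same order of cultures, within the probe set SD. Tnnc1 was higher by 0.71, 0.97 and 0.57, short of 2-fold but each beyond the SD of its comparison. Tpm1 differed by -0.63, -0.65 and -0.58, also beyond it without being called. Fibroblast markers moved with the tropomyosins, 7, 9 and 7 of 10 being at least 2-fold lower in these cultures than in the neonatal library. Smooth muscle and pericyte markers were lower for 6 of 9 in each culture. Epithelial markers were higher for 7 of 7 in each, with list medians of 4.33, 4.55 and 4.54. Cardiomyocyte markers were higher for 4, 3 and 2 of 12 and lower for 1, 2 and 1. The part of these markers in the result was not tested.

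Relative to the adult library, Tnni3 was at least 2-fold higher and Tpm2 at least 2-fold lower in all 3 cultures, and the calls of other members depended on the culture or were absent. Tnni3 was higher by 1.27 with DMSO and NRG-1, 1.12 with NRG-1 and 1.33 with DMSO. Tnni1 was higher by 1.34 and 1.23 and Tnnt2 by 1.10 and 1.10 in the cultures with DMSO and NRG-1 and with DMSO, while with NRG-1 these genes stood at 0.87 and 0.28. Tpm2 was lower by -1.61, -1.38 and -1.42 and Tpm4 by -1.06 with DMSO and NRG-1. In all, 3, 1 and 3 members were higher, where 9.16%, 8.46% and 8.95% of all genes were, and 2, 1 and 1 lower, where 8.7%, 10.7% and 8.45% were. Tnnt1, Tnnc1 and Tpm1 were not called in any culture. Tnnt1 differed by -0.04 with DMSO and NRG-1, 0.08 with NRG-1 and 0.01 with DMSO, and Tpm1 by -0.48, -0.50 and -0.43, all within the probe set SD. Tnnc1 differed by 0.67, 0.94 and 0.53, each beyond it. Markers of several cell types moved with these values. In the cultures with DMSO and NRG-1, with NRG-1 and with DMSO, 7, 4 and 7 of 12 cardiomyocyte markers were at least 2-fold higher than in the adult library and 0 lower. Fibroblast markers were lower for 8 of 10 and smooth muscle and pericyte markers for 4 of 9 in each, with 0 higher. Epithelial markers were higher for 7 of 7 in each, with list medians of 5.42, 5.34 and 5.22. Macrophage markers were higher for 2 of 8 and lower for 4 in each. The part of these markers in the members' values was not tested.

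Ratios between members were followed next, since a shift of a whole library leaves them as they are. The ratio of fetal to cardiac troponin I, Tnni1 over Tnni3, changed by 0.09 on the log2 scale between the adult and the neonatal library, and by -0.16 to 0.16 between any other library and iPS cells. Neither the adult library nor any culture thus had a shift of 2-fold in this pair, although both genes were lower in the adult library. Tnnt1 over Tnnt2 was lower than in iPS cells by -2.50 to -4.43 on the log2 scale, as Tnnt1 was lower and Tnnt2 higher in each. Tnnt2 gave the larger part, at 1.87 to 3.42, beside -0.55 to -1.02 for Tnnt1. Tnnt1 was called lower in the neonatal library only, and with NRG-1 its difference was within the probe set SD. Among tropomyosins, Tpm2 over Tpm1 was lower in the cultures than in the adult library, by -1.13 with DMSO and NRG-1, -0.88 with NRG-1 and -0.98 with DMSO. Tpm4 over Tpm1 differed by no more than 0.66 in size in the comparisons with iPS cells.

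**Figure D3:**
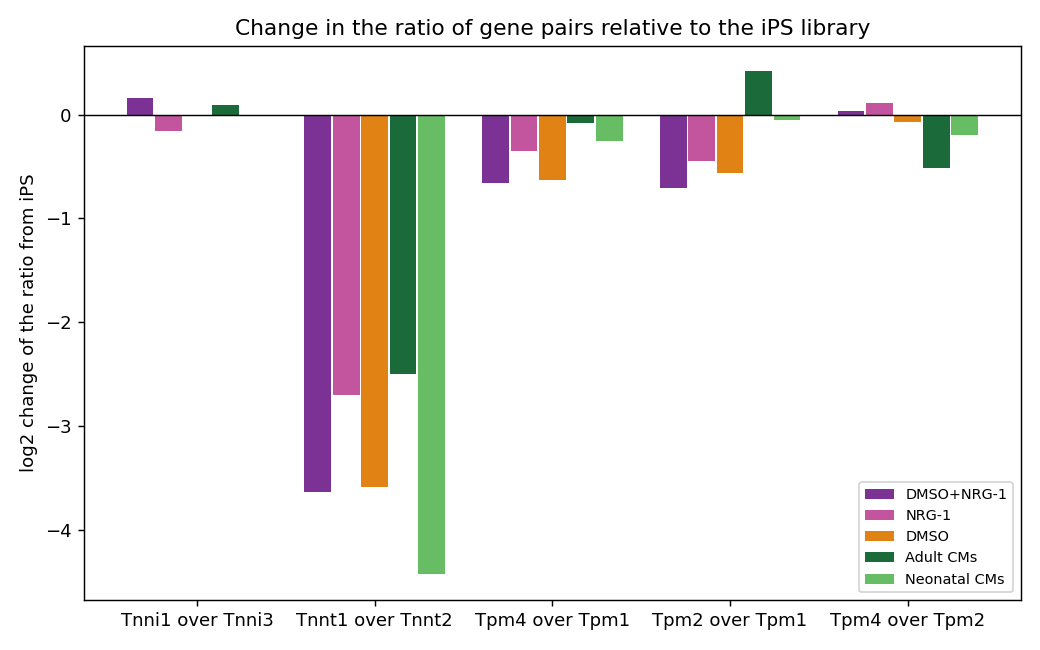
Log2 change of the ratio of 2 genes (vertical axis) from the iPS library for 5 pairs (horizontal axis), 1 bar per library. Tnnt1 over Tnnt2 is lowest in the neonatal library (-4.43), Tnni1 over Tnni3 stays within -0.16 to 0.16, and Tpm2 over Tpm1 is above 0 in the adult library only (0.42).

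Other genes of these families were not called. Tnnt3, Tnni2 and Tnnc2, which encode the fast skeletal troponins, and Tpm3, which encodes a slow skeletal and non-muscle tropomyosin, had 0 of 4 genes 2-fold apart in any of the 15 comparisons. Tnnt3 ranged over 0.85, with its lowest value in iPS cells (5.46) and its highest with NRG-1 (6.31), and Tnni2, Tnnc2 and Tpm3 ranged over 0.30, 0.31 and 0.29. The 2 probe sets of Tpm3 disagreed, adult minus neonatal being 0.77 on the first and -0.52 on the second.

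Other proteins of the thin filament were read from a list of 19 genes, of actins, tropomodulins, leiomodins and nebulins among them. With DMSO and NRG-1, with NRG-1 and with DMSO, 5, 3 and 5 of the 19 were at least 2-fold above iPS cells and 0 lower, with list medians of 0.29, 0.22 and 0.38. The filter was passed by 15, 14 and 15 of them. Over all genes that passed, 13.0%, 11.3% and 13.1% were higher and 13.1%, 14.5% and 13.3% lower. Fhod3, a formin needed for sarcomere assembly, stood at 8.38, 8.57 and 7.96 in these cultures, against 6.20 in the adult, 6.50 in the neonatal and 6.45 in the iPS library. Cardiac actin, Actc1, was 8.20, 7.46 and 8.44 in the cultures, 5.72 in the adult, 8.03 in the neonatal and 6.58 in the iPS library, so that, as for Tnni3 and Tnni1, the adult value was the lowest of the 6. Smooth muscle actin, Acta2, was 11.85, 11.12 and 11.82 in the cultures, 13.60 in the adult, 13.61 in the neonatal and 11.08 in the iPS library. In the adult library 4 of the 19 were higher and 0 lower than in iPS cells, and in the neonatal library 6 were higher and 1 lower. In each of these comparisons 14 passed the filter. Over all genes that passed, 13.1% and 13.0% were higher and 14.1% and 11.2% lower.

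Thick filament genes, the myosins and their partners, were read from a list of 13. Of these, 7, 6 and 6 were at least 2-fold above iPS cells with DMSO and NRG-1, with NRG-1 and with DMSO, against 0 in both the adult and the neonatal library, and 0 were lower in any of the 5. Only 10, 9 and 10 of the 13 passed the filter in the cultures, and 7 in both the adult and the neonatal comparison. Over all genes that passed, 11.3% to 13.1% were higher and 11.2% to 14.5% lower in these 5 comparisons. Myl3, the ventricular essential light chain, was higher by 2.81, 3.41 and 2.52 in the cultures, beside 0.70 in the adult and 0.78 in the neonatal library. List medians were 1.17, 0.54 and 0.76 in the cultures and 0.18 and 0.59 in the adult and neonatal libraries, so that the median with NRG-1 was below the neonatal one.

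Genes whose products bind or regulate tropomyosin in smooth muscle and non-muscle cells were read from a list of 15. Of these, 9 were at least 2-fold above iPS cells in the adult and 9 in the neonatal library, and 7, 6 and 6 in the cultures with DMSO and NRG-1, with NRG-1 and with DMSO, with 0 lower in any. All 15 passed the filter in each comparison. Over all genes that passed, 11.3% to 13.1% were higher and 11.2% to 14.5% lower. List medians were 1.58 and 1.48 in the adult and neonatal libraries and 0.87, 0.67 and 0.79 in the cultures. Caldesmon, Cald1, stood at 10.24, 9.88 and 10.33 in the cultures, 11.19 in the adult, 11.10 in the neonatal and 8.68 in the iPS library. Calponin 1, Cnn1, stood at 8.28, 7.59 and 8.14 in the cultures, 10.16 in the adult, 9.45 in the neonatal and 7.23 in the iPS library. Not all genes of the list had this order: Myh9, a non-muscle myosin, stood at 11.11, 11.27 and 11.11 in the cultures, 11.40 in the adult and 11.04 in the neonatal library, against 9.80 in iPS cells, and the actinin Actn4 was highest in the cultures with DMSO (11.76 in both). The part of these genes and of the fibroblast markers in the tropomyosin values was not tested.

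**Figure D4:**
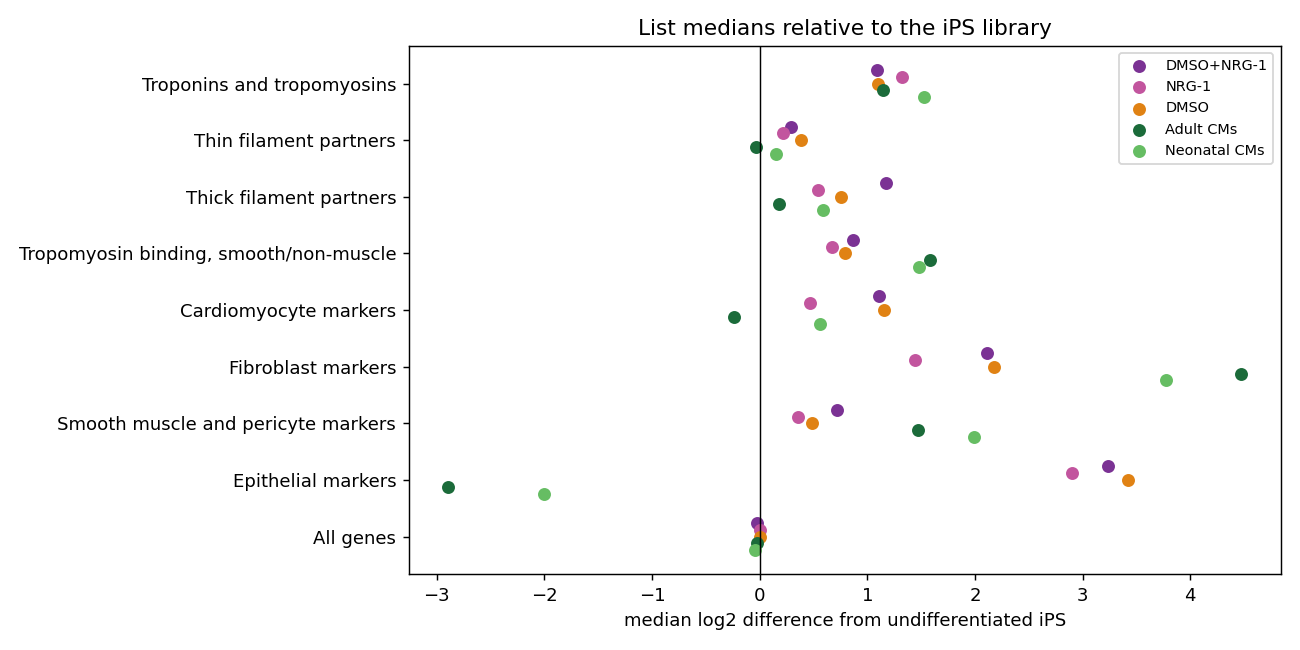
Median log2 difference from the iPS library (horizontal axis) of 8 gene lists and of all genes (vertical axis), 1 point per library. Fibroblast markers lie at 4.47 and 3.77 in the adult and neonatal libraries, cardiomyocyte markers at -0.24 and 0.56, and all genes at about 0.

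Transcription factors known to act on troponin and tropomyosin genes were read from a list of 17, of which 16 were measured. With DMSO and NRG-1, with NRG-1 and with DMSO, 4, 5 and 4 were at least 2-fold above iPS cells and 1 lower, and 4 and 6 were higher and 0 lower in the adult and neonatal libraries. The filter was passed by 16, 14 and 15 in the cultures and by 16 in both the adult and the neonatal comparison. Over all genes that passed, 11.3% to 13.1% were higher and 11.2% to 14.5% lower. Gata4 was higher by 3.11, 3.31 and 2.77 in the cultures and by 2.10 and 2.23 in the adult and neonatal libraries, and Mef2a was higher in all 5. Tead2, a TEAD factor, was the lower one in the cultures, at 6.68, 7.10 and 7.02 against 8.77 in iPS cells, while Tead1 ranged over 0.77 across the 6 libraries. Myocd, myocardin, a cofactor of SRF, was 6.41, 6.17 and 6.31 in the cultures, 5.44 in the adult, 6.08 in the neonatal and 5.14 in the iPS library. Nkx2-5 ranged over 0.72.

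The genes whose profiles over the 6 libraries were most like those of the members were found by the root mean square difference of centred log2 values, as a description with no test. The nearest 5 to Tnnt2 were Masp1, Thbd, St3gal1, Kitl and Meis1, at 0.158 to 0.333. For Tnni3 they were Gpx3, Tnni1, Mrpl27, Fgd6 and Rbm12b2, at 0.095 to 0.169, and for Tnni1 they were Gpx3, Mrpl27, Tnni3, Chml and Maf, at 0.050 to 0.165. Wdr81, Hhipl2, Ankrd40, Dyrk2 and Mical3 were nearest to Tnnc1 (0.058 to 0.086), and Gga3, Sarm1, Cntn2, Zfp446 and Ppfia3 to Tnnt1 (0.059 to 0.075). The nearest to Tpm1 were Cmtm3, Sh3rf1, Mamld1, Serpinh1 and Cryab (0.110 to 0.143), those to Tpm2 were Ikbip, Golim4, Chst14, Farp1 and Inafm2 (0.102 to 0.130), and those to Tpm4 were Chst14, Selenon, Oat, Dubr and C3ar1 (0.089 to 0.145). Among the members themselves, Tpm2 and Tpm4 were 0.205 apart and Tpm1 and Tpm4 0.250, whereas Tnnt2 was 0.608 from Tpm1, its nearest member. Tpm1 was thus not among the 5 nearest profiles of Tnnt2, but in place 110 of 13270.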

How the data were processed

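RNA of 6 samples, 1 per group, was hybridised to 1 array each. The deposited log2 table covers 41345 probe sets. It was made by RMA according to the submitters' processing notes, and the software is not given in the sources used here. That the scale is log2 follows from the range of values. The columns have nearly equal distributions, with a gap between sorted values of 0.285 at most, so a shift of most genes together would not show, and detection values are absent from the table. The number of arrays limits the precision.

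Samples were grouped by title. Of the probe sets, 23521 carried 1 symbol in the platform annotation, 1814 several and 16010 are unnamed here; the mean over a gene's probe sets gave 22180 genes. No coordinates of probe sets are given because the table names no build. The 15 comparisons are all pairs of libraries, as differences of log2 values, with a 2-fold threshold and a filter at the median of all values (5.20). The probe set SD is that of the difference between the log2 differences of 2 probe sets, scaled to 1 probe set, over 449 to 509 genes. No test was run. Members, 8 gene lists and 9 marker lists were chosen with earlier results of these data known. The rule named all members, up to 4 genes of each list with the largest differences, and the 5 nearest profiles, leaving out predicted, small RNA, receptor and histone names; other list genes named were chosen after their values were seen. The counting step was tested on simulated data. Alternatives were no filter, the 75th percentile (6.93), the brightest probe set, cyclic loess (limma 3.58.1, R 4.3.3) and a shift to equal medians of 11 housekeeping genes. Calculations used Python 3.11.15, pandas 2.3.3 and numpy 2.4.6.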

Additional observations from a re-analysis of the deposited data

How the results depend on the processing

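No paired analysis was possible because each group has 1 library. The 8 members' differences in the 15 comparisons moved by -0.21 to 0.52 with the brightest probe set, by -0.13 to 0.08 with cyclic loess and by -0.45 to 0.41 under the housekeeping shift, and no member called 2-fold apart changed direction under these 3. The housekeeping shift moved the difference of the libraries' medians over all genes to 0.44 for DMSO minus iPS and -0.45 for NRG-1 minus DMSO, so its counts were also taken relative to the median of all genes, an alternative chosen after seeing the data. Without a filter every count of members was as reported. Under the other settings some smaller changes in a count are not listed. With the filter at the 75th percentile 0 members were lower in neonatal minus iPS and 0 higher in NRG-1 minus adult. With the brightest probe set 2 members were lower in DMSO minus adult and 1 in DMSO and NRG-1 minus neonatal, and 1 of the 5 nearest profiles of Tpm4 was shared. With cyclic loess 1 member was higher in NRG-1 minus neonatal and 2 lower in DMSO minus adult. Tnni1 then fell just short of 2-fold in DMSO minus iPS (0.99). Under the housekeeping shift 1 member was higher in DMSO and NRG-1 minus NRG-1 and 1 lower in NRG-1 minus DMSO, Tnnt2 in both (1.13 and -1.27), 0 were lower in neonatal minus iPS and in DMSO minus neonatal, 0 higher in NRG-1 minus adult, and 1 lower in DMSO and NRG-1 minus adult and minus neonatal. Against iPS cells, Tnni3 (1.16) and Tnni1 (1.15) also passed 2-fold in the neonatal library under that shift. The adult and neonatal libraries then no longer had the same members called higher. Tnnc1 passed with DMSO (1.35) and Tnni3 with DMSO and NRG-1 (1.25). Relative to the median of all genes, 2 members were lower in DMSO minus adult and in DMSO minus neonatal. In neonatal minus iPS 0 were lower. Taken gene by gene, the median difference of the 11 housekeeping genes from iPS cells was -0.13, -0.37 and -0.35 with DMSO and NRG-1, with NRG-1 and with DMSO. It was -0.31 and -0.42 in the adult and neonatal libraries. These are not the sizes of the shift, which equalized the median level of the 11 genes in each library. With NRG-1 that level was 9.53, against 9.48 in iPS cells. Why the counts moved was not tested. With 1 library per group and no signal over background, small differences and dim genes cannot be judged.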

Other observations

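Regulators of splicing that act on Tnnt2 and tropomyosin transcripts were read as a list of 19 genes. Mbnl1 and Mbnl2, muscleblind proteins that act on Tnnt2 exons, were at least 2-fold above iPS cells in all 5 other libraries. Mbnl1 stood at 8.97, 8.70 and 9.20 with DMSO and NRG-1, with NRG-1 and with DMSO, at 10.22 in the adult and 10.10 in the neonatal library, against 7.66 in iPS cells. Celf2, an opposing regulator of Tnnt2 splicing, was at 4.43, 4.17 and 4.37 in the cultures, below the filter, and at 5.60 in the adult, 5.93 in the neonatal and 3.80 in the iPS library. Esrp1, an epithelial splicing factor, was 7.22, 7.04 and 7.32 in the cultures and 4.29 and 4.32 in the adult and neonatal libraries, against 6.49 in iPS cells. Of the list, 4, 4 and 5 genes were higher in the cultures, 4 in the adult and 5 in the neonatal library, and 0, 1, 0, 1 and 1 lower. The filter was passed by 16, 17, 17, 17 and 18 genes in the same order. Over all genes that passed, 11.3% to 13.1% were higher and 11.2% to 14.5% lower. The splice forms themselves cannot be read from these values.

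Kinases and phosphatase subunits that act on troponin I were read as a list of 12 genes, 11 of them measured. Protein kinase C delta, Prkcd, stood at 9.16, 9.08 and 9.13 in the cultures with DMSO and NRG-1, with NRG-1 and with DMSO, 9.17 in the adult and 9.11 in the neonatal library, against 7.91 in iPS cells, and Prkca at 7.68, 7.44, 7.64, 7.82 and 7.07 in the same libraries, against 6.12. Tnni3k, a cardiac kinase that binds cardiac troponin I, was below the filter in all 6, at 3.99 to 4.55. The list had 3, 3 and 2 genes at least 2-fold above iPS cells in the cultures and 4 and 3 in the adult and neonatal libraries, and 0 lower. In each comparison 10 of its genes passed the filter. Over all genes that passed, 11.3% to 13.1% were higher and 11.2% to 14.5% lower.

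Of the 8 skeletal muscle markers, 1 was highest in iPS cells, as Tnnt1 was. Mylpf, the fast skeletal regulatory light chain, stood at 4.28, 4.56 and 4.22 in the cultures, 4.46 in the adult and 4.35 in the neonatal library, against 8.17 in iPS cells.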
